A study of Mus musculus with 12 samples.

Results

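The pericentral zonation genes described here are 10 genes that mark, or act in, the hepatocytes around the central vein of the liver lobule: Glul, Oat, Cyp2e1, Cyp1a2, Axin2, Lgr5, Slc1a2, Rhbg, Lect2 and Tbx3. They were chosen by name, as the 10 rows with these symbols among the 35275 gene rows of a mouse liver RNA-seq table, and all 10 were found. The study crossed genotype with diet in 4 groups of 3 libraries: livers labelled as Hnf4a liver knockout on high fat diet (KO HFD), the same genotype label on vivarium chow (KO chow), wild type on high fat diet (WT HFD) and wild type on vivarium chow (WT chow). The sources used here do not give how Hnf4a was deleted, nor strain, sex, age or length of feeding, and the submitters call the 3 libraries of a group biological replicates. The unit is FPKM, in which reads are divided by the length of the gene and the depth of the library, so that levels of different genes can be set side by side per length.

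Liver cells differ along the path of the blood, which enters the lobule at the portal tract and leaves by the central vein. Endothelial cells at the central vein release Wnt ligands and R-spondin, and beta-catenin signalling in the nearest hepatocytes keeps on a set of genes for glutamine synthesis, ammonium uptake and xenobiotic oxidation. HNF4A, a nuclear receptor of hepatocytes, is known from mouse liver to restrain Glul in periportal cells.

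The 12 libraries held 15705196 to 20311766 reads on genes, and 2 features of the series bear on the values below. Hnf4a stood at 98.8 to 158 FPKM in the 6 libraries labelled KO. In the 6 WT libraries it stood at 116 to 133 FPKM in WT HFD and WT chow 1, at 75.8 FPKM in WT chow 2 and at 0.0973 FPKM in WT chow 3. Hnf4a did not pass the test between the genotype labels (limma adjusted p = 1 on high fat diet and 0.273 on chow), so directions are given for libraries by their label. WT chow 2 and WT chow 3 stood apart: albumin (Alb) was at 7604 and 11.9 FPKM there, against 12811 FPKM or more in each other library, and WT chow 3 had 2339 FPKM of Ucp1, the uncoupling protein of brown fat. In WT chow 3, 12 hepatocyte markers summed to 25.0 FPKM, against 53460 FPKM or more in the 10 libraries without WT chow 2 and 3. WT chow 2 differed from WT chow 3 here: the same markers summed to 30210 FPKM and Ucp1 was at 0 FPKM. The tissue that WT chow 3 holds was not tested beyond these markers. Results that use the WT chow group are therefore given with all 12 libraries and with the 10 that leave out these 2, in which WT chow keeps a single library whose spread is taken from the other groups. In bulk tissue, fewer cells of a type and less RNA per cell cannot be told apart.

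Promoter sequences are shown first for Glul, Axin2 and Slc1a2, which had lower levels in KO HFD than in KO chow libraries, and for Lect2, which had a higher one. Each runs 5′ to 3′ over 250 bases before and 50 bases after the gene's start in RefSeq, on build GRCm38.p6. Capitals mark the core of the TCF/LEF motif, the site bound by the partners of beta-catenin, searched as CTTTGA on both strands (TCAAAG on the other strand).
Glul, chr1:153899679-153899978, plus strand: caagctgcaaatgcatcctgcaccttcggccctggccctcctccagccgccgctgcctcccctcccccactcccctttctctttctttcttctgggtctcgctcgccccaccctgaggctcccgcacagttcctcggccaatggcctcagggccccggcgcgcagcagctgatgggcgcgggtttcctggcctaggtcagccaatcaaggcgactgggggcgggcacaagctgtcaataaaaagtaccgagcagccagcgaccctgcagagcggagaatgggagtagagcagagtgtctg
Axin2, chr11:108920099-108920398, plus strand: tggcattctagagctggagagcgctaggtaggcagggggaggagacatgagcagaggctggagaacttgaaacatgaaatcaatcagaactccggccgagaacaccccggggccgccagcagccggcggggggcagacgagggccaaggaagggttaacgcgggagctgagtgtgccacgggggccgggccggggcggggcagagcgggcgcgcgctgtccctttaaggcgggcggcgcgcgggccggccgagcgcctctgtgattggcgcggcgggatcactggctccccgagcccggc
Slc1a2, chr2:102706188-102706487, plus strand: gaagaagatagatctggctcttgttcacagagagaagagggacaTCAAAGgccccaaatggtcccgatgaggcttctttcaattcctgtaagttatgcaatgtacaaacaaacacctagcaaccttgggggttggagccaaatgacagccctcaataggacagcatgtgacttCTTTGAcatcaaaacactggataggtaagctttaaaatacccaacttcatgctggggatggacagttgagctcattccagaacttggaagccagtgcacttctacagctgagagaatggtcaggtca
Lect2, chr13:56548489-56548788, minus strand: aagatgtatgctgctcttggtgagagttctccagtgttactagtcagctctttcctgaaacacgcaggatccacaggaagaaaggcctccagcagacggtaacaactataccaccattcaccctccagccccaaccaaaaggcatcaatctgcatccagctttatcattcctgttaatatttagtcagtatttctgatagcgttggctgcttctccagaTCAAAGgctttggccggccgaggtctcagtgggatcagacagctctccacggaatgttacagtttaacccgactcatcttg
Of the 7 pericentral genes with a RefSeq promoter entry, 4 held the TCF/LEF core (Cyp1a2, Cyp2e1, Lect2 and Slc1a2), against 16.0% of 32851 promoters of the same length. The HNF4A core, searched as CAAAGTCC on both strands, was in 0 of the 7, against 1.42% of all promoters. Slc1a2 held the TCF/LEF core at 2 places and Lect2 at 1, close to its start. A match is a run of letters in this window and was not tested as a binding site. Lgr5, Rhbg and Tbx3 were matched by name in the expression table only. The RefSeq start of Slc1a2 lies 47779 bases inside the gene as the expression table draws it.

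Glul encodes glutamine synthetase, which fixes ammonium in the last rows of hepatocytes before the central vein (ENSMUSG00000026473, chr1:153899944-153909723, plus strand, GRCm38). Glul was at 288, 348 and 293 FPKM in KO HFD, at 497, 462 and 485 FPKM in KO chow, at 285, 356 and 331 FPKM in WT HFD and at 316, 190 and 579 FPKM in WT chow libraries. The 3 KO HFD libraries all lay below the 3 KO chow libraries, and the KO HFD and WT HFD ranges overlapped. The 3 KO chow libraries also lay above the 3 WT HFD libraries and WT chow 1, but below WT chow 3. Group means were 310 ± 33.4 FPKM in KO HFD and 481 ± 18.1 FPKM in KO chow (SD, n = 3 each), a ratio of 0.643.

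Slc1a2 encodes GLT-1, a glutamate importer of pericentral hepatocytes (ENSMUSG00000005089, chr2:102658659-102790784, plus strand). It was at 4.74, 7.63 and 8.64 FPKM in KO HFD, at 13.1, 14.6 and 12.5 FPKM in KO chow, at 10.3, 11.9 and 8.23 FPKM in WT HFD and at 8.84, 0.160 and 0.0105 FPKM in WT chow libraries. KO HFD and KO chow did not overlap, and the ratio of their means was 0.523. Every KO chow library also lay above every WT HFD and WT chow library. Rhbg, an ammonium transporter of the same cells (ENSMUSG00000001417, chr3:88242874-88287210, minus strand), ranged over 7.20 to 15.9 FPKM in KO HFD, 7.77 to 14.9 FPKM in KO chow, 2.75 to 8.37 FPKM in WT HFD and 0.0626 to 4.57 FPKM in WT chow libraries, with KO HFD and KO chow overlapping. Oat, the ornithine aminotransferase whose product leads to glutamate (ENSMUSG00000030934, chr7:132557475-132576398, minus strand), ranged over 166 to 287 FPKM in KO HFD, 208 to 422 FPKM in KO chow, 124 to 337 FPKM in WT HFD and 2.64 to 302 FPKM in WT chow libraries, and all 4 ranges overlapped. By start and end of the whole gene, Oat overlaps Fgfr2 and Rhbg overlaps Tsacc on the same strand. Whether counted bases overlap, and how reads there were assigned, was not tested. By the same measure, Glul, Axin2, Lgr5, Slc1a2 and Tbx3 each overlap a low gene on the opposite strand, such as Tbx3os1 at a mean of 0.515 FPKM over Tbx3. With the strand setting unknown, reads in bases shared by such pairs cannot be told apart.

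Cyp2e1 and Cyp1a2, cytochromes P450 that oxidise small solvents and aromatic amines, are made mainly in pericentral hepatocytes (Cyp2e1 at chr7:140763739-140774975, plus strand, and Cyp1a2 at chr9:57676937-57683655, minus strand). Cyp2e1 was at 2073, 3597 and 3769 FPKM in KO HFD, at 3867, 4335 and 4198 FPKM in KO chow, at 6016, 4589 and 2967 FPKM in WT HFD and at 3727, 204 and 12.4 FPKM in WT chow libraries. Its KO HFD libraries lay below its KO chow libraries, and KO HFD 1 was well below KO HFD 2 and KO HFD 3. Cyp1a2 ranged over 225 to 496 FPKM in KO HFD, 428 to 448 FPKM in KO chow, 276 to 467 FPKM in WT HFD and 0.0320 to 364 FPKM in WT chow libraries. KO HFD and KO chow overlapped because KO HFD 2 was the highest library of both groups.

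Axin2, Lgr5 and Tbx3 are targets and parts of the Wnt pathway (Axin2 at chr11:108920349-108950783, plus strand, Lgr5 at chr10:115450311-115587780, minus strand, and Tbx3 at chr5:119670669-119684724, plus strand). Axin2, a scaffold of the beta-catenin destruction complex and a feedback target, was at 0.777, 1.48 and 0.691 FPKM in KO HFD, at 1.64, 2.48 and 3.26 FPKM in KO chow, at 1.19, 1.44 and 1.62 FPKM in WT HFD and at 1.79, 0.287 and 4.62 FPKM in WT chow libraries. Every KO HFD library was below every KO chow library, at 52 to 121 reads against 113 to 218 reads per library. Lgr5, a receptor for R-spondin, was at 0.656, 1.15 and 0.638 FPKM in KO HFD, at 1.69, 2.18 and 1.30 FPKM in KO chow, at 0.883, 1.52 and 1.02 FPKM in WT HFD and at 1.10, 0.111 and 0.0506 FPKM in WT chow libraries. It rested on 54 to 106 reads in KO HFD and 98 to 212 reads in KO chow libraries.

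Tbx3, a T-box transcription factor downstream of beta-catenin in liver, was at 2.73, 4.07 and 3.51 FPKM in KO HFD, at 5.58, 8.23 and 8.29 FPKM in KO chow, at 4.54, 5.29 and 7.67 FPKM in WT HFD and at 5.88, 0.522 and 1.95 FPKM in WT chow libraries. It was the 1 gene of the 10 whose KO HFD libraries lay below both KO chow and WT HFD libraries. Lect2, a secreted factor made by hepatocytes and known as a beta-catenin target in mouse liver (chr13:56542460-56548538, minus strand), was at 193, 239 and 225 FPKM in KO HFD, at 144, 124 and 171 FPKM in KO chow, at 179, 227 and 160 FPKM in WT HFD and at 173, 23.4 and 0 FPKM in WT chow libraries. Lect2 was the 1 gene of the 10 whose KO HFD libraries lay above its KO chow libraries.

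**Figure D1:**
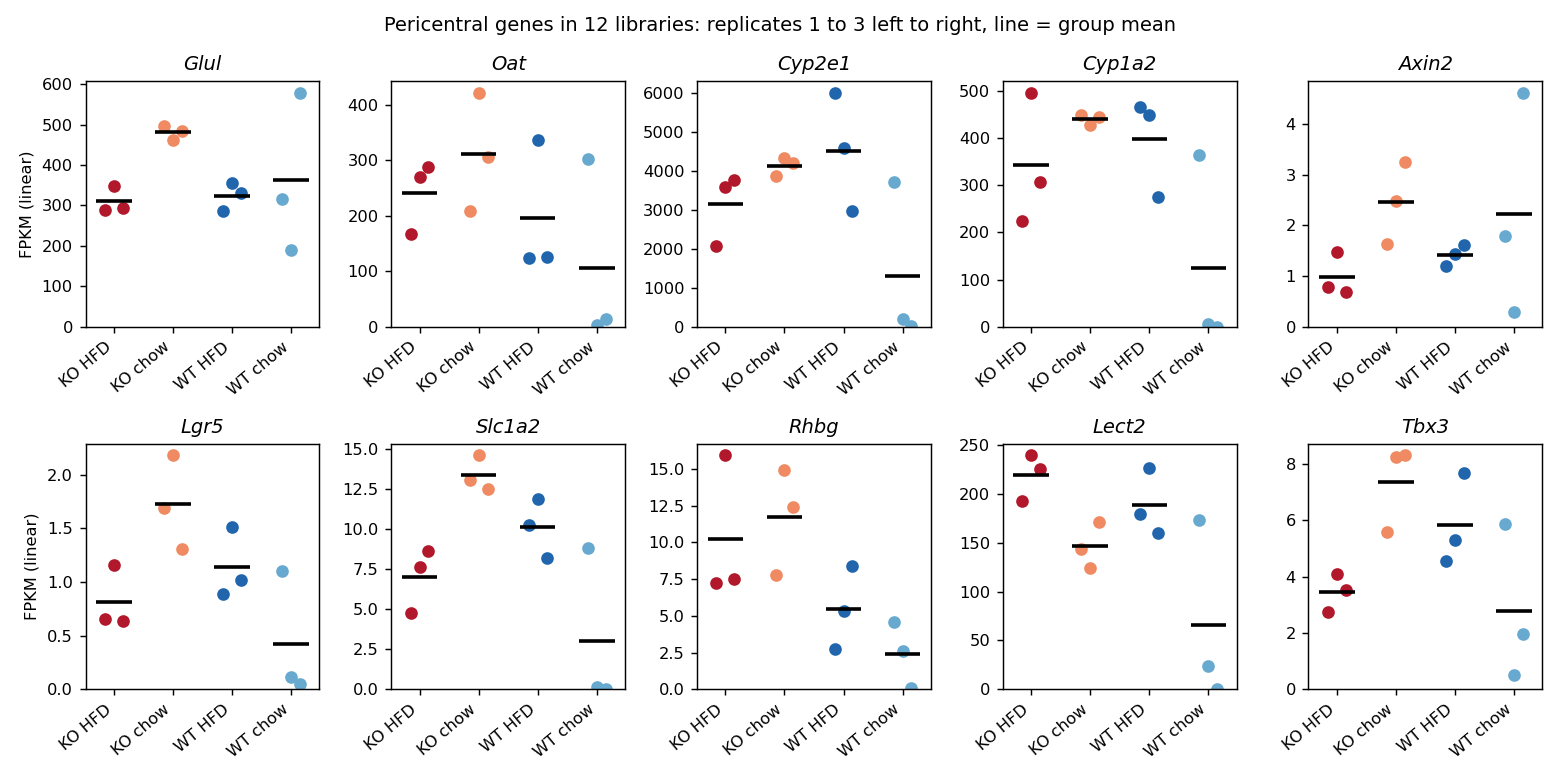
FPKM of each of the 10 genes on a linear axis in KO HFD, KO chow, WT HFD and WT chow libraries, with 1 point per library and a line at the group mean. KO HFD points lie below KO chow points for Glul, Cyp2e1, Axin2, Lgr5, Slc1a2 and Tbx3 and above them for Lect2.

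High fat diet was compared with chow within the libraries labelled KO. A lower level in KO HFD is thus relative to KO chow. For Glul, Slc1a2 and, narrowly, Axin2, KO chow libraries also lay above every WT HFD library, while for Tbx3 these groups overlapped. Of the 10 genes, 6 were lower in KO HFD than in KO chow without overlap (Glul, Cyp2e1, Axin2, Lgr5, Slc1a2 and Tbx3), where 21.6% of the 12251 genes tested were lower without overlap. Lect2 was higher without overlap, where 9.98% of all genes were, and Oat, Cyp1a2 and Rhbg overlapped. On the log2(FPKM + 1) scale the median difference of the 10 genes was -0.51, against -0.06 over all genes tested.

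With all 12 libraries in the fit, 0 of the 10 genes passed limma's test after Benjamini-Hochberg adjustment over all genes, at a threshold of 0.05, where 0.155% of genes were called (19 genes). 0 of the 10 had an unadjusted p under 0.05, where 7.54% of genes did, and limma-voom on the recovered reads called 0 as well. Without WT chow 2 and 3, 4 of the 10 fell in KO HFD relative to KO chow, where 7.76% of genes were called, 6.24% lower and 1.52% higher. At an unadjusted p under 0.05 there were 6 of the 10, against 29.2% of genes. The 4 were Glul at -0.64 (SE 0.15, limma adjusted p = 0.0408), Axin2 at -0.80 (SE 0.21, limma adjusted p = 0.0496), Slc1a2 at -0.88 (SE 0.21, limma adjusted p = 0.0411) and Tbx3 at -0.91 (SE 0.21, limma adjusted p = 0.0411). Lgr5, at -0.58 (limma adjusted p = 0.0735), and Lect2, at 0.58 (limma adjusted p = 0.0750), did not pass. Oat, Cyp2e1, Cyp1a2 and Rhbg differed by -0.35, -0.44, -0.44 and -0.22, with limma adjusted p between 0.362 and 0.745.

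These 4 calls were near the threshold. Over 17 alternatives to the 10-library fit, Glul, Axin2 and Slc1a2 each passed in 5 and Tbx3 in 4, and all 4 stayed below 0 in each alternative. With the KO HFD and KO chow libraries fitted alone, 0 of the 10 genes were called, where 0.163% of genes were, with limma adjusted p = 0.109 for Glul and 0.101 for Tbx3. In that fit 6 of the 10 had an unadjusted p under 0.05, against 24.8% of genes. Leaving out 1 further library at a time, 2 fell without KO chow 3 (Glul and Slc1a2), where 9.3% of genes fell, and 1 without KO HFD 2 (Axin2), where 2.75% fell. Both counts are too small to be set against these shares. Without KO HFD 1, KO HFD 3, KO chow 1, KO chow 2 or any 1 WT HFD library, 0 of the 10 were called, where 0.139% to 0.922% of genes were.

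**Figure D2:**
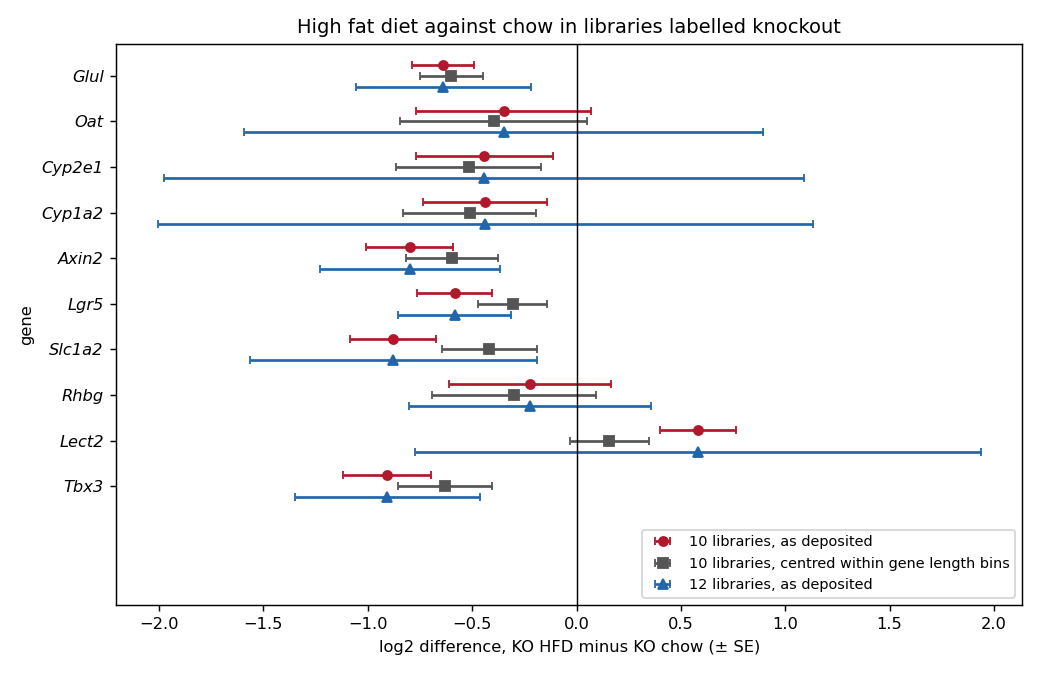
Log2 difference, KO HFD minus KO chow, of each of the 10 genes with its standard error, in the fit of 12 libraries, the fit of 10 libraries and the 10-library fit centred on gene length. The difference is below 0 for 9 genes and above 0 for Lect2 in each fit, and the errors are wider with 12 libraries.

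Gene length moved with this contrast across the whole table. In the 10-library fit the median log2 difference, KO HFD minus KO chow, was 0.40 over 1257 genes under 1000 bases, 0.19 over 2508 genes of 1000 to below 2000 bases, -0.06 over 4887 genes of 2000 to below 4000 bases, -0.295 over 3142 genes of 4000 to below 8000 bases and -0.48 over 457 genes of 8000 bases or more. Lect2, at 877 bases, is the shortest of the 10 genes, and Slc1a2, at 11595 bases, is the longest. Axin2, Lgr5 and Tbx3, at 4260, 4793 and 4982 bases, fall in the class where 13.7% of genes were called lower, and Slc1a2 in the class where 29.1% were.

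After each library was centred within 20 bins of gene length, 0 of the 10 genes were called, where 0.367% of genes were (45 genes), and 3 had an unadjusted p under 0.05, against 20.3% of genes. The centred differences were -0.60 for Glul (SE 0.15, limma adjusted p = 0.0993), -0.60 for Axin2 (SE 0.22, limma adjusted p = 0.188), -0.63 for Tbx3 (SE 0.23, limma adjusted p = 0.180) and -0.42 for Slc1a2 (SE 0.23, limma adjusted p = 0.333). Lect2 stood at 0.16 (SE 0.19, limma adjusted p = 0.671) and Lgr5 at -0.31 (SE 0.17, limma adjusted p = 0.329). Glul, at 2792 bases, kept nearly the size it had before centring, while Slc1a2 and Lect2 lost more than the others named here. The median of the 10 genes after centring was -0.47.

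**Figure D3:**
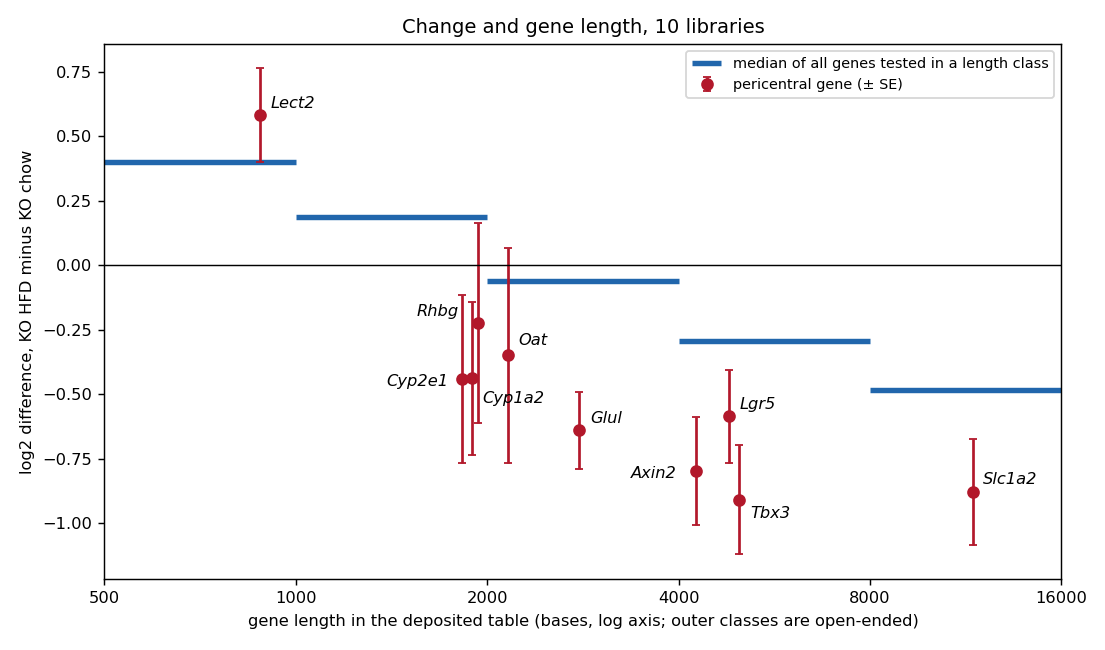
Log2 difference, KO HFD minus KO chow, in the 10-library fit against gene length in bases on a log axis, with red points for the 10 pericentral genes (± SE) and blue bars for the median of all tested genes in each length class. The blue medians go down with length, and Lect2 and Slc1a2 sit at opposite ends of the range.

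Markers of other tissues also separated these groups. The summed level of 8 pancreatic acinar markers was 41.4 to 70.0 FPKM in KO HFD and 0.357 to 0.736 FPKM in KO chow libraries, with 7 of the 8 at 0 in every KO chow library, Prss2 and Ctrb1 among them. The summed level of 8 striated muscle markers was 0.308 to 0.493 FPKM in KO HFD, where Myh6 and Myl2 were at 0, and 5.50 to 19.9 FPKM in KO chow libraries. The 12 hepatocyte markers summed to 53460 to 77780 FPKM in KO HFD and 60530 to 64970 FPKM in KO chow libraries, and the 12 endothelial markers to 46.6 to 51.6 FPKM in KO HFD and 44.8 to 68.8 FPKM in KO chow libraries. The summed level of 8 gut stem and Paneth cell markers was 6.57 to 15.1 FPKM in KO HFD and 4.23 to 5.51 FPKM in KO chow libraries. Of the 4 of these 8 that were tested, Defa24 and Lyz1 were higher in KO HFD, while Smoc2 and Lgr5, itself on that list, were lower. Smoc2 was at 1.56, 1.92 and 1.60 FPKM in KO HFD and at 2.27, 3.04 and 2.88 FPKM in KO chow libraries. The sums thus mix changes in opposite directions. Defa24, a Paneth cell defensin, was at 8.56, 2.99 and 2.84 FPKM in KO HFD and at 0 FPKM in all 3 KO chow libraries. The part of these markers in the pericentral differences was not tested.

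Between genotype labels on high fat diet, 0 of the 10 genes passed limma's test with 12 libraries, where 0.155% of genes were called, and 0 with 10 libraries, where 0.18% were. At an unadjusted p under 0.05 there were 0 of the 10 with 12 libraries, against 1.27% of genes, and 2 with 10 libraries, against 12.5%. Of the 10, only Tbx3 was lower in KO HFD than in WT HFD without overlap, where 12.4% of all genes were. Its log2 difference was -0.61, and the largest in the other direction was Rhbg at 0.80, whose means were 10.2 ± 4.95 FPKM in KO HFD and 5.48 ± 2.81 FPKM in WT HFD libraries (SD, n = 3 each). Their limma adjusted p with 10 libraries was 0.369 for Tbx3 and 0.425 for Rhbg. Glul differed by -0.06, with means of 310 ± 33.4 FPKM in KO HFD and 324 ± 36.2 FPKM in WT HFD libraries.

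Comparisons with WT chow depended much on 2 libraries, for some of the 10 genes more than for others. With 12 libraries the log2 difference, KO chow minus WT chow, was 3.59 for Oat, 4.25 for Cyp2e1, 4.99 for Cyp1a2 and 3.18 for Lect2, and 8 of the 10 genes had an unadjusted p under 0.05, where 21.1% of genes did. By limma's adjusted p, 0 of the 10 genes and 0% of all genes passed. Of the 10, 5 were higher in KO chow than in WT chow without overlap (Cyp2e1, Cyp1a2, Lgr5, Slc1a2 and Rhbg), where 12.4% of all genes were. Without WT chow 2 and 3 the same differences were -0.01 for Oat, 0.15 for Cyp2e1, 0.27 for Cyp1a2 and -0.25 for Lect2, again with 0 of the 10 called, where 0.00816% of genes were, and 1 at an unadjusted p under 0.05, against 2.8%. With WT chow 1 left out instead, so that WT chow rests on the 2 libraries that stand apart, 8 of the 10 were called in KO chow against WT chow, where 24.3% of genes were, and 7 in WT HFD against WT chow, where 19.9% were. In WT HFD against WT chow, 0 of the 10 genes were called in either fit, where 0% of genes passed with 12 libraries and 0.00816% with 10. At an unadjusted p under 0.05 there were 7 with 12 libraries, against 14.7% of genes, and 0 with 10, against 2.38%. The 10-library differences lay between -0.79 (Oat) and 0.22 (Cyp2e1).

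In WT chow 2 the median log2 difference from the WT HFD mean was -2.54 over the 10 genes and -4.29 over 18 further pericentral genes. It was -1.11 over 18 periportal genes and -1.63 over 12 hepatocyte markers. The same medians in WT chow 3 were -2.98, -6.40, -6.47 and -9.36. Each is 1 library, and the cause was not tested. In WT chow 3 the 10 genes did not go together. Lect2 had 0 reads, Cyp1a2 had 1 read, and Slc1a2 and Rhbg had 2 reads each. Glul and Axin2, at 579 and 4.62 FPKM, were higher there than in any other library, and Tbx3 was at 1.95 FPKM. The 10 fat markers summed to 13890 FPKM at most in the WT chow group, against 71.1 FPKM at most in the 10 libraries without WT chow 2 and 3, and the part of this in the levels of Glul and Axin2 was not tested.

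**Figure D4:**
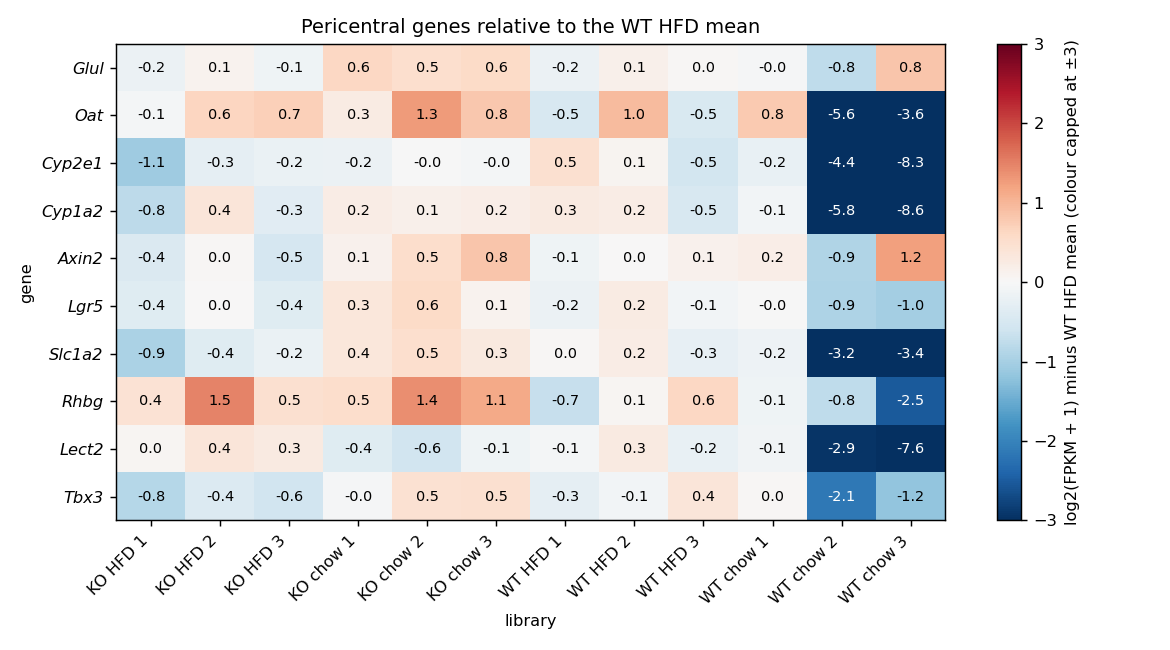
Difference of each of the 10 genes from its WT HFD mean in each of the 12 libraries, on the log2(FPKM + 1) scale, with colour capped at ±3. WT chow 2 and WT chow 3 stand apart from the other 10 libraries for most genes, with Glul and Axin2 above the WT HFD mean in WT chow 3.

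The diet difference itself was compared between genotype labels by the interaction, (KO HFD minus KO chow) minus (WT HFD minus WT chow). By limma's adjusted p 0 of the 10 genes passed with 12 libraries, where 0.122% of genes did, and 0 with 10 libraries, where 0.0816% did. At an unadjusted p under 0.05 there were 4 with 12 libraries, against 16.6% of genes, and 3 with 10, against 10.2%. With 10 libraries the interaction was -1.04 for Slc1a2, -0.87 for Tbx3, -0.67 for Glul and -0.59 for Axin2. Without WT chow 1 it was called for 7 of the 10, where 18.5% of genes were called. The 4 genes called lower in KO HFD are thus not shown to respond differently in the WT label.

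Other genes of the Wnt pathway were read from lists by role. Among 7 tested ligands and enhancers, 0 passed limma's test in KO HFD against KO chow with 10 libraries, and their median log2 difference was -0.06, that of all genes. Rspo3, the R-spondin of central vein endothelium, was at 1.498, 1.26 and 0.710 FPKM in KO HFD and at 1.94, 1.501 and 2.13 FPKM in KO chow libraries (log2 difference -0.42, limma adjusted p = 0.135). Wnt2 differed by -0.18 (limma adjusted p = 0.623), and Wnt9b, at a mean of 0.206 FPKM, was below the filter on low values.

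Of 12 tested receptors and receptor turnover genes, 5 fell and 0 rose in the same 10-library fit, where 6.24% of all genes fell, and their median was -0.65. Of these 12 genes, 10 are 4000 bases or longer, in the length classes where 13.7% and 29.1% of genes fell, and 0 were called after centring on gene length. Lgr4, an R-spondin receptor found across the lobule, was at 5.34, 8.46 and 7.50 FPKM in KO HFD and at 13.0, 15.4 and 10.9 FPKM in KO chow libraries (log2 difference -0.81, limma adjusted p = 0.0371). Lrp6 and Lrp5, co-receptors of Wnt, differed by -0.85 (limma adjusted p = 0.0351) and -0.72 (limma adjusted p = 0.0364). Rnf43, a ligase that removes Wnt receptors and is itself a target, differed by -0.68 (limma adjusted p = 0.0408), and Fzd7, a Wnt receptor, by -0.58 (limma adjusted p = 0.0456).

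Of 16 tested genes of the destruction complex and beta-catenin transcription, 3 fell and 0 rose, where 6.24% of all genes fell: Apc (-0.77), Bcl9l (-0.88) and Dvl3 (-0.86). Here 9 of the 16 are 4000 bases or longer, and 0 were called after centring. Ctnnb1, which encodes beta-catenin, differed by -0.40 (limma adjusted p = 0.125) and Tcf7l2, its DNA-binding partner in liver, by -0.30 (limma adjusted p = 0.284). Of 18 further pericentral genes, 2 fell, where 6.24% of all genes fell, a count too small to be set against that share. They were Rnf43, counted among the receptors above, and Sp5, a direct target of Wnt signalling that was at 1.08, 1.49 and 1.21 FPKM in KO HFD and at 2.54, 2.51 and 2.58 FPKM in KO chow libraries. After centring, 0 of the 18 were called either, and the receptors' median was -0.31, against 0.0032 over all genes. With 12 libraries 0 genes of these lists passed.

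**Figure D5:**
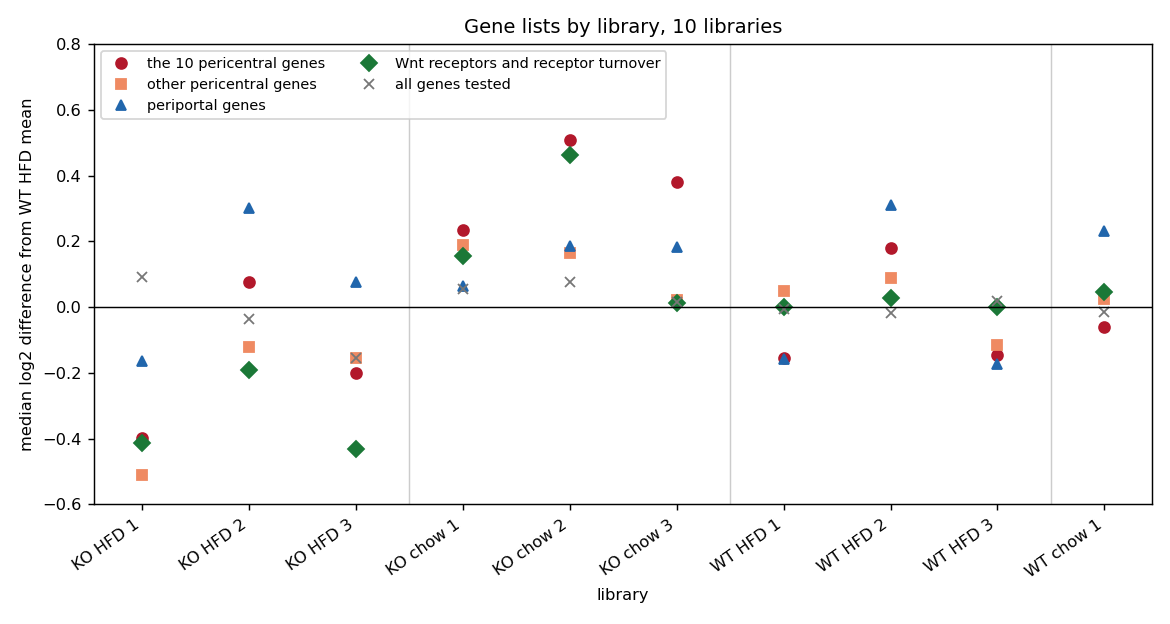
Median log2 difference from the WT HFD mean, by library, for the 10 pericentral genes and the lists set beside them, in the 10 libraries without WT chow 2 and 3. For the 10 genes the KO chow libraries lie at 0.235 to 0.508, above the KO HFD libraries at -0.398 to 0.077.

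How alike other genes ran was measured as the root-mean-square difference between mean-centred log2(FPKM + 1) profiles over the 10 libraries. The nearest genes were Hnrnph2 for Glul (0.0953), Ncam2 for Lgr5 (0.0796), Hs3st3b1 for Slc1a2 (0.0963), Ndufaf6 for Lect2 (0.116), Sprtn for Axin2 (0.155) and Ankrd33b for Tbx3 (0.184). Cyp1a2 was nearest to Rnf39 (0.136), Cyp2e1 to Adh7 (0.172), Oat to Cth (0.302) and Rhbg to Sparcl1 (0.316). The genes' own root-mean-square deviations from their means differed, at 0.574 for Oat, 0.647 for Rhbg, 0.297 for Glul and 0.287 for Lgr5. The distances are therefore not comparable between genes. None of the nearest genes named is one of the 10. Over the 10 libraries Glul had the narrowest range, with its highest level 1.75 times its lowest, and Rhbg the widest, at 5.78 times.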

How the data were processed

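Total RNA from samples labelled as mouse liver was sequenced in 12 libraries, 4 groups of 3. The authors deposited 1 table of FPKM per gene, and the submitters' processing notes name HTSeq 0.6.1 beside STAR, TopHat, CASAVA and DESeq2, and the builds GRCm38 and mm10. The sources used here do not give the counting options, strand setting included. FPKM times gene length was divided by a step inferred for each library, at first the smallest non-zero product. The step was then refined from the summed reads. The quotients were whole reads for at least 99.977% of non-zero values (tolerance 0.1 read). These recovered reads gave the depths.

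Values were tested as log2(FPKM + 1) with limma 3.58.1 in R 4.3.3 (group means, empirical Bayes with trend) over 12251 genes, those whose mean reached 0.5 FPKM. P-values were adjusted by Benjamini-Hochberg over all of them, with a threshold of 0.05, for 5 contrasts. The fold scale understates changes of low genes. The fit without WT chow 2 and 3 was planned, as were its fits with a further library left out. Its other alternatives, length centring among them, and the 2-group fit were added after seeing the data. WT chow 2 and 3 were themselves singled out by marker levels in these same data, so the choice to leave them out is not independent of the values. The script was tested on simulated data.

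The 17 lists, that of the 10 genes included, were chosen with earlier results of these data known. Named genes are the 10, Hnf4a, list genes past the threshold (up to 4 per list and contrast by smallest p), Wnt2, Wnt9b, Rspo3, Ctnnb1, Tcf7l2, and each gene's nearest profiles. Fzd7, the fifth called receptor gene, and Smoc2 fall outside that rule and were named after their values were seen. Sequences come from RefSeq promoters, with 7 of the 10 genes matched.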

Additional observations from a re-analysis of the deposited data

How the results depend on the processing

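With 12 libraries, 995 of the values recomputed under alternatives kept their direction and side of the threshold, 26 came to pass it and 19 reversed. The number of the 10 genes called in KO HFD against KO chow was 0, and 4 without WT chow 2 and 3. Leaving out 1 library at a time moved the count called over 0 to 8 in KO chow against WT chow, 0 to 7 in WT HFD against WT chow and 0 to 7 in the interaction, each highest without WT chow replicate 1. In the 10-library fit the count of 4 ranged over 0 to 2 with 1 further library left out. It was 5 with TPM, which added Lgr5, and 4 each with a pseudocount of 0.1, limma-voom and a filter on the 10 libraries' own mean, where 18.2%, 8.47%, 9.89% and 8.65% of genes were called. It was 0 with median-of-ratios scaling (7.25% of genes called), 0 with scaling to hepatocyte markers (0.229%) and 0 with centring on gene length (0.367%), and the cause was not tested.

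The replicate block called 0 of the 10 in the 12-library fit and 0 in place of 4 in the 10-library fit. Same-numbered samples shared only a number: the correlation of their deviations ran over -0.504 to 0.131, and each library correlated best with its own number in 9 of 36 comparisons.

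Lect2 in KO HFD minus WT HFD reversed to -0.056 (10 libraries) with length centring. Scaling 12 libraries to hepatocyte markers, which shifts WT chow 3 by 7.99 on the log2 scale, reversed 3 sets of values. In KO chow minus WT chow they were Glul -2.93, Lgr5 -0.61 and Tbx3 -1.66. In WT HFD minus WT chow they were Oat -0.64, Lgr5 -0.90, Rhbg -0.89 and Tbx3 -1.97. In the interaction they were Glul 3.01, Oat 0.36, Axin2 2.54, Lgr5 0.50, Rhbg 0.75 and Tbx3 1.22. Leaving out WT chow 2 and 3 reversed Oat (-0.014) and Lect2 (-0.25) in KO chow minus WT chow, Oat (-0.79) and Tbx3 (-0.036) in WT HFD minus WT chow, and Oat (0.44) and Lect2 (0.48) in the interaction. A difference smaller than its standard error was given no direction in these counts. With 3 libraries a group and 52 to 218 reads on Axin2 in the KO libraries, small changes of the low genes were not detectable at this depth.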

Other observations

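Glutamine, glutamate and ammonium genes other than the 10 showed no called change in KO HFD against KO chow with 10 libraries: 0 of 15 tested passed limma's adjusted test, where 7.76% of all genes did, 2 had an unadjusted p under 0.05, where 29.2% did, and their median log2 difference was 0.01. Slc38a3, the glutamine transporter of hepatocytes, was at 407, 704 and 671 FPKM in KO HFD and at 652, 783 and 741 FPKM in KO chow libraries, which overlapped. Gls2, the liver glutaminase of periportal cells, was at 165, 222 and 211 FPKM in KO HFD and at 184, 197 and 210 FPKM in KO chow libraries, with the KO HFD libraries on both sides. Slc38a3 and Gls2 were chosen after their values were seen. Of 18 periportal genes 0 passed limma's adjusted test and 2 had an unadjusted p under 0.05, against the same shares of all genes, with a median of -0.09.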
